A study of Mus musculus with 6 samples.

Results

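The genes described here are 44 genes of the lysosome, taken by symbol out of 55487 rows of the deposited count table. They comprise 12 lysosomal proteases, 10 glycosidases, 5 sulfatases, 4 enzymes of lipid breakdown, 3 soluble proteins without enzyme activity of their own, 7 membrane proteins, and the transcription factors Tfeb, Tfe3 and Mitf. All 44 were found once in the table, and 41 passed the filter on low counts. Ctsf, Ctsk and Ctss did not pass it and are described by their counts alone. The members were picked by function and not by a threshold on these data. Earlier results of these data were, however, known when they were chosen.

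The study sequenced RNA in 6 libraries from the mouse breast tumour line 4T-1. The wild-type group (n = 3) and the Lyplal1 knockout group (n = 3) were both untreated, and the labels list no other allele or agent. Lyplal1 encodes a lysophospholipase-like protein related to the acyl-protein thioesterases, and the title of the series links it to depalmitoylation of the DNA sensor cGAS and to immunotherapy. The labels carry the sample codes NC for wild type and sg2 for knockout, and they do not say whether the knockout was 1 clone or a pool, or whether the 3 libraries of a group came from separate cultures. P-values therefore measure only the spread between these libraries, which may be technical.

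Total counts ran from 16731209 to 17108975 per library. The targeted gene Lyplal1 (chromosome 1, 186087731 to 186117310, minus strand, GRCm38) had 76, 73 and 68 counts in wild type and 54, 48 and 58 in knockout. Its fitted log2 fold change was -0.28 ± 0.15 (SE), with an adjusted p of 0.0886 (edgeR quasi-likelihood test, Benjamini-Hochberg), so it did not pass the threshold. A frameshifting edit need not lower the RNA, so this level does not check the genotype. Of 10 epithelial markers 8 passed the filter on low counts, and Krt5 and Krt6a had at most 1 count in any library. Krt18 had 3898 ± 93.4 TPM in wild type and 1243 ± 36.1 TPM in knockout (SD, n = 3), and Cdh1 had 881 ± 3.74 and 682 ± 25.0 TPM. Of the 8 tested markers 1 was higher in knockout and 6 were lower. Of 10 fibroblast markers 3 were tested, 2 were higher and 1 was lower, with Pdgfra at 27.4 ± 0.688 and 62.5 ± 4.07 TPM.

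Lysosomes are acidic organelles in which hydrolases break down proteins, glycans and lipids that arrive by endocytosis or autophagy. Most soluble hydrolases reach them through mannose 6-phosphate receptors, while heavily glycosylated membrane proteins line the organelle and a proton pump, the vacuolar ATPase, acidifies it. Tfeb, Tfe3 and Mitf are related transcription factors that bind a short promoter element shared by many lysosomal genes, and they are held in the cytosol when mTORC1 phosphorylates them at the lysosome surface.

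Most of the lysosomal genes had more RNA in the knockout cells. Of the 41 tested members, 34 rose and 6 fell in knockout (edgeR, adjusted p under 0.05), and Mitf did not pass. These counts stand against a background in which 82.3% of all 13022 tested genes were called, 41.3% higher and 40.9% lower. A member being called is thus close to the rule for any gene in these data, and the split of the calls by direction is what differed in size: 82.9% of tested members were higher and 14.6% lower. The median fitted log2 fold change was 0.69 over the members and -0.0012 over all tested genes, and the median absolute change was 0.85 and 0.57. At least 2-fold changes were seen in 15 members, all higher, against 28.0% of all genes (12.4% higher and 15.6% lower). At least 1.5-fold changes were seen in 27 members, against 48.1% of all genes. Counts scaled to library sizes adjusted by TMM factors (CPM), not to library size alone, were also compared between the groups. The CPM of knockout and wild-type libraries did not overlap for 40 of 41 members, against 83.1% of all genes, and the exception was Manba. In bulk RNA, fewer cells of a type and less RNA per cell cannot be told apart.

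**Figure D1:**
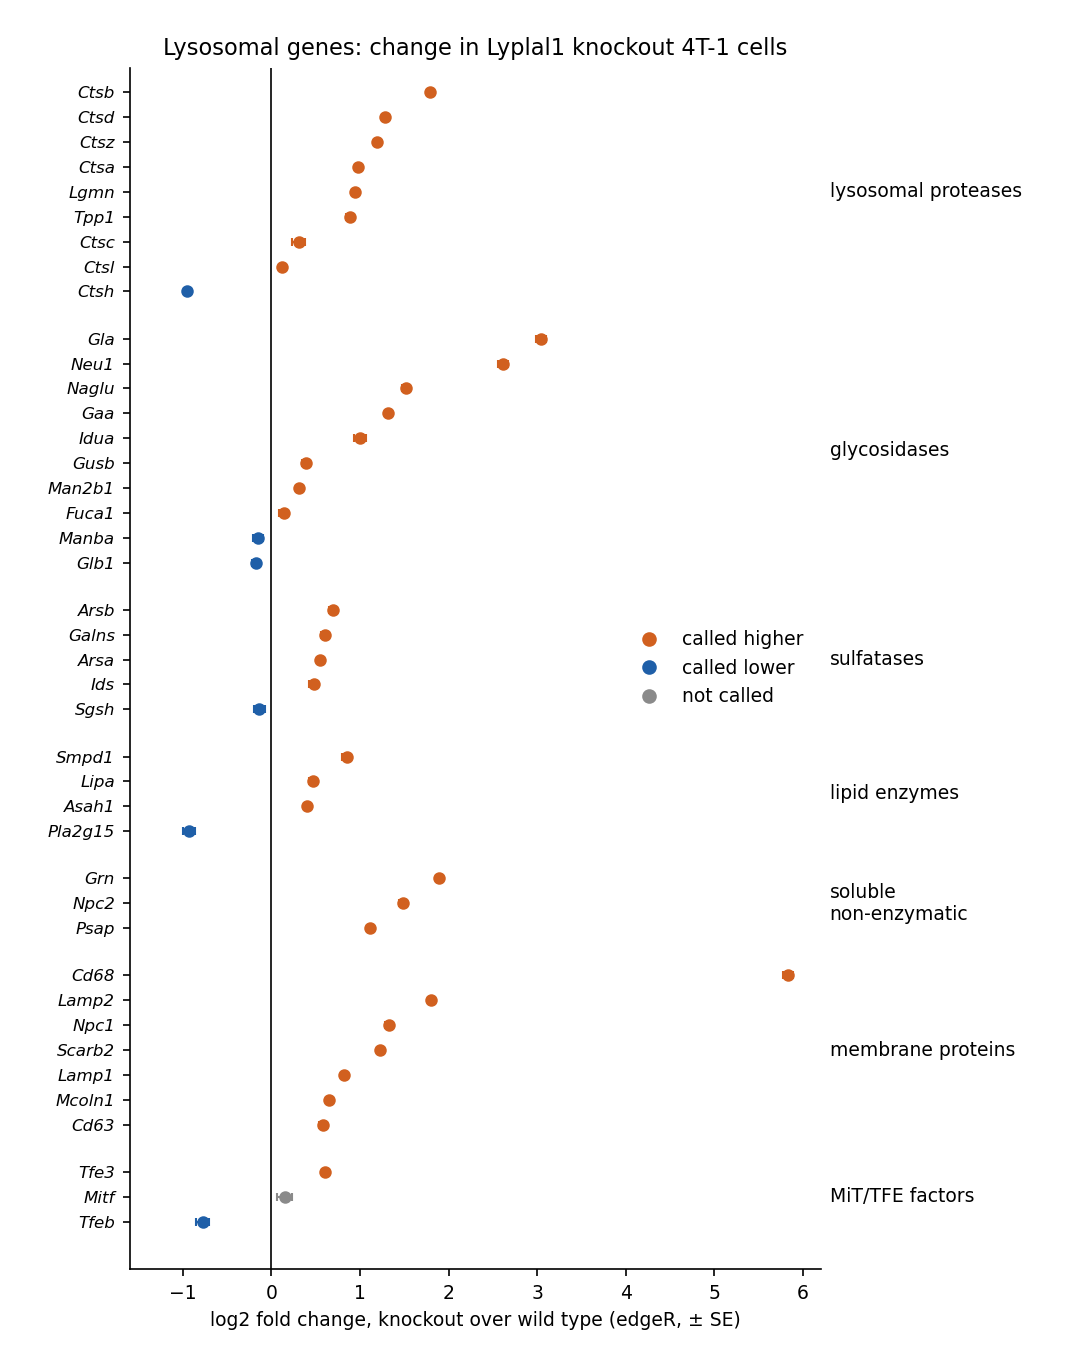
Fitted log2 fold change (knockout minus wild type, edgeR, TMM factors) of each of the 41 tested members with its standard error, grouped by function. Cd68 lies farthest to the right at 5.83 and Ctsh farthest to the left at -0.95. Ctsl (0.11) and Fuca1 (0.14) lie near 0, and both turn negative when deposited TPM are used instead.

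Among the members the direction depended on the scaling for Ctsl, Fuca1 and Mitf, which are described with their classes. The factors used here centre the bulk of genes near 0. With upper-quartile factors the median of all tested genes shifted by -0.13, with library size alone by -0.14, and on log2(TPM + 1) by -0.19. On log2(TPM + 1) 38.5% of all calls were higher instead of 50.2%, and among the members 31 were then higher and 7 lower. Levels below are in TPM, the transcript share of a library after division by gene length, which allows genes to be compared. Fitted changes are on the log2 scale of counts with TMM factors, which the deposited TPM do not carry. A gene whose fitted change is slightly above 0 can therefore have slightly lower TPM in knockout.

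The 3 transcription factors moved in different directions. Tfeb (chromosome 17, 47737030 to 47792419), a main regulator of lysosomal genes, had 19.3, 19.2 and 21.2 TPM in wild type and 10.1, 10.4 and 9.80 TPM in knockout. All 3 knockout libraries lay below all 3 wild-type libraries. Wild type exceeded knockout 1.71-fold, a log2 fold change of -0.77 ± 0.072 (SE), with an adjusted p of 1.78e-10 (edgeR, Benjamini-Hochberg). Tfe3 (chromosome X, 7762560 to 7775202), its close relative, had 54.2, 55.1 and 54.1 TPM in wild type and 71.0, 74.0 and 71.0 TPM in knockout. The groups did not overlap, in the opposite direction from Tfeb. The fitted change was 0.61 ± 0.036, a 1.53-fold rise, with an adjusted p of 1.29e-14 in the same edgeR test. Mitf, best known for its role in melanocytes, had 8.08, 7.96 and 8.22 TPM in wild type and 8.19, 7.29 and 7.82 TPM in knockout. These TPM overlapped, while in CPM all knockout libraries were higher. The change of 0.15 ± 0.086 did not pass (edgeR adjusted p = 0.113). Without knockout replicate 2 the change was 0.21 (edgeR adjusted p = 0.0479), and on log2(TPM + 1) the difference was -0.05. In sum the 3 factors had 81.5, 82.3 and 83.5 TPM in wild type and 89.3, 91.6 and 88.6 TPM in knockout, and Tfe3 held most of that in both groups. RNA levels do not show where in the cell the proteins were.

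The element these factors recognise, called CLEAR, is built on the E-box CACGTG, and its full form is GTCACGTG followed by AC. It was searched on both strands in RefSeq promoter windows (GRCm38.p6, 250 bases before to 50 after each gene start). Of the 44 members 39 matched a window by symbol; Asah1, Ctsb, Ctsh, Galns and Npc1 did not. A gene was counted when any of its windows held the letters. The full form of 10 letters was in 0 of the 39 and in 0.37% of all 27025 genes with a window. Its first 8 letters, GTCACGTG, were in 10 of 39 (25.6%) and in 2.55% of all these genes. The bare CACGTG, which lies within both, was in 13 of 39 (33.3%) and in 8.09% of all. Since many lysosomal genes share this element, these shares describe the choice of genes and not the knockout. The 10 members with GTCACGTG were Arsa, Ctsa, Ctsd, Gla, Glb1, Lamp1, Lgmn, Mcoln1, Naglu and Sgsh. Stretches of 30 bases are printed for the 4 of them with the largest rises and for both that fell, 5′ to 3′, with the 8 letters in capitals, because the same letters stood before genes that moved in opposite directions.
Gla, chrX:134601183-134601212, minus strand: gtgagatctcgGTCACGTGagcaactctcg
Naglu, chr11:101070008-101070037, plus strand: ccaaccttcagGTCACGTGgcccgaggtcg
Ctsd, chr7:142387907-142387936, plus strand: gccctcaacggGTCACGTGagacgcgggcg
Ctsa, chr2:164833748-164833777, plus strand: atgagcaaactGTCACGTGatgcagatgct
Glb1, chr9:114401017-114401046, plus strand: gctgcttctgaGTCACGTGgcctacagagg
Sgsh, chr11:119355521-119355550, plus strand: cgctccccacgGTCACGTGcacggcaggcc
Gla, Naglu, Ctsd and Ctsa had fitted log2 fold changes of 3.04, 1.52, 1.28 and 0.98, and Glb1 and Sgsh of -0.17 and -0.14. Over the tested members the median was 0.89 with the 8 letters (n = 10) and 0.65 without them (n = 26). Several of the larger rises had no GTCACGTG in the window, among them Cd68, Neu1, Grn and Lamp2. A match of letters is a description and not a binding site, and no binding was measured.

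Among the proteases 8 of 9 tested members rose and Ctsh fell, and their summed level went from 2350 ± 17.1 TPM in wild type to 3979 ± 53.1 TPM in knockout (SD, n = 3). Ctsb, a cysteine cathepsin, rose most, from 265, 273 and 271 TPM to 796, 804 and 828 TPM. Its libraries fell into clearly separate groups, with a fitted change of 1.79 ± 0.033. Ctsd, the aspartic cathepsin, rose by 1.28 ± 0.037, and Ctsz, a carboxypeptidase, by 1.19 ± 0.034. The exons of Ctsd share 34.4% of their length with Gm49369 on the same strand, which had 0 counts in every library. Ctsa, which also holds Neu1 and Glb1 in a stable complex, rose by 0.98, Lgmn, which cuts after asparagine, by 0.94, and the tripeptidyl peptidase Tpp1 by 0.88. Ctsc, which activates serine proteases of immune cells, rose by 0.31, but its call was lost on log2(TPM + 1) (limma adjusted p = 0.231).

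Ctsh, an aminopeptidase and the only tested protease that fell in the main test, lies on chromosome 9 (90054152 to 90076089). It had 144, 150 and 147 TPM in wild type and 63.6, 68.1 and 66.1 TPM in knockout. Every knockout library was below every wild-type library. Wild type exceeded knockout 1.93-fold (log2 fold change -0.95 ± 0.040, edgeR adjusted p = 1.08e-17), the largest fall of any tested member. Ctsl, a broad endopeptidase, had 608, 630 and 605 TPM in wild type and 588, 581 and 559 TPM in knockout. In TPM its knockout libraries were all lower, while in CPM they were all higher. The fitted change was 0.11 ± 0.030 (edgeR adjusted p = 0.00103), -0.02 with upper-quartile factors and -0.09 on log2(TPM + 1), so the sign rests on the scaling. Its exons also share 26.8% of their length with Gm47123 on the opposite strand, and they overlap a pseudogene on the same strand.

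**Figure D2:**
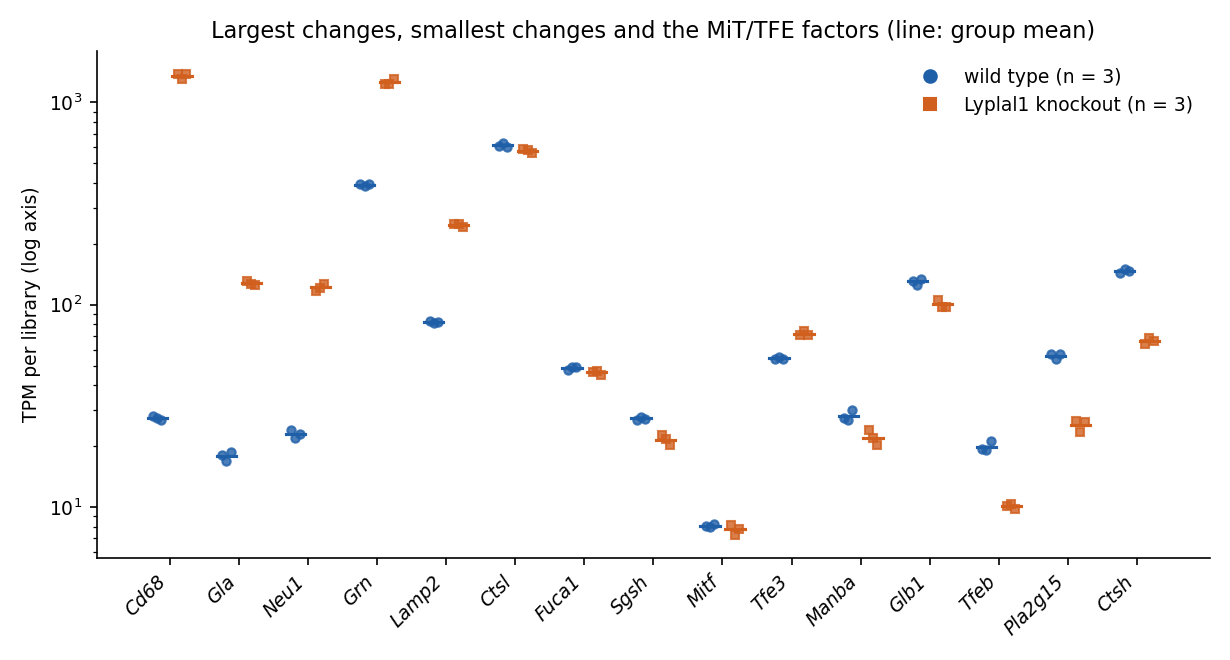
Deposited TPM of the members with the largest or smallest changes, transcription factors included, in each of the 6 libraries, on a log axis, with 1 point per library and a line at each group mean. Cd68 sits between 26.9 and 28.3 TPM in wild type and between 1306 and 1386 TPM in knockout, while the points of Ctsl and Fuca1 lie close together and are slightly lower in knockout on this scale, although their fitted changes are above 0.

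The glycosidases, which remove sugars from glycoproteins, glycolipids and glycosaminoglycans, held 8 rises and 2 falls among 10 members. Gla, the alpha-galactosidase whose lack causes Fabry disease, lies on chromosome X (134588149 to 134601125, minus strand). It had 18.04, 16.9 and 18.7 TPM in wild type and 132, 127 and 125 TPM in knockout. The groups were far apart, an 8.25-fold difference (log2 fold change 3.04 ± 0.055, edgeR adjusted p = 4.95e-26). Neu1, the lysosomal sialidase (chromosome 17, 34931253 to 34935953), had 24.1, 21.9 and 23.0 TPM in wild type and 118, 121 and 127 TPM in knockout. All 3 knockout libraries were high, and the fold was 6.12 (log2 fold change 2.61 ± 0.055, edgeR adjusted p = 1.56e-24). Naglu and Idua, which act on heparan sulfate, rose by 1.52 and 1.0 on the log2 scale, and Gaa, the acid glucosidase that breaks down glycogen, by 1.32. Gusb and Man2b1 rose less, by 0.39 and 0.31.

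The falls among glycosidases were small. Glb1, the beta-galactosidase used as a senescence stain, had 132, 126 and 134 TPM in wild type and 106, 97.7 and 97.9 TPM in knockout. Its groups did not overlap, and the fitted change was -0.17 ± 0.044 (edgeR adjusted p = 0.00108). Manba, the beta-mannosidase, had 27.7, 26.8 and 30.2 TPM in wild type and 24.1, 21.8 and 20.2 TPM in knockout. These TPM did not overlap but the CPM did. The change of -0.15 ± 0.060 passed in the main test (edgeR adjusted p = 0.0236) and did not pass without wild-type replicate 3 (0.156), knockout replicate 2 (0.086) or knockout replicate 3 (0.124). Fuca1, which removes fucose, had 47.5, 49.0 and 49.1 TPM in wild type and 46.6, 47.2 and 45.02 TPM in knockout. All knockout libraries were lower in TPM and higher in CPM. Its change was 0.14 ± 0.053 (edgeR adjusted p = 0.0181), -0.07 on log2(TPM + 1), and it did not pass without wild-type replicate 1 (0.0865). In sum the glycosidases went from 595 ± 12.9 to 1047 ± 17.8 TPM.

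The sulfatases, which take sulfate off glycosaminoglycans and sulfolipids, moved less: their summed level was 265 ± 1.86 TPM in wild type and 330 ± 8.51 TPM in knockout. Arsb, Galns, Arsa and Ids rose by 0.69, 0.60, 0.55 and 0.48 on the log2 scale, and none of the 4 reached 2-fold. The exons of Arsb share 32.3% of their length with Gm26527 on the opposite strand, and the strand setting of the counting is not given in the sources used here. Sgsh, which acts on heparan sulfate, had 26.9, 28.0 and 27.3 TPM in wild type and 22.7, 21.7 and 20.3 TPM in knockout. The groups did not overlap, but the fitted change was small at -0.14 ± 0.062 (edgeR adjusted p = 0.0426). That call was lost without wild-type replicate 2 (0.102), wild-type replicate 3 (0.0742), knockout replicate 2 (0.103) or knockout replicate 3 (0.164). Sgsh shares 21.6% of its exon length with Card14 on the opposite strand.

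Of the 4 lipid enzymes 3 rose and 1 fell, and their sum changed little, from 443 ± 4.12 to 489 ± 4.32 TPM. Smpd1, the acid sphingomyelinase, rose by 0.85, Lipa, the acid lipase for cholesteryl esters and triglycerides, by 0.47, and Asah1, the acid ceramidase, by 0.40. Pla2g15, the lysosomal phospholipase A2 (chromosome 8, 106150399 to 106164715), had 56.8, 53.8 and 57.2 TPM in wild type and 26.6, 23.5 and 26.2 TPM in knockout. Each knockout library was below each wild-type library, and wild type exceeded knockout 1.91-fold (log2 fold change -0.93 ± 0.065, edgeR adjusted p = 4.69e-13).

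All 3 soluble proteins without enzyme activity rose more than 2-fold. Grn, the precursor of the granulins (chromosome 11, 102430315 to 102437048), had 394, 388 and 395 TPM in wild type and 1240, 1238 and 1304 TPM in knockout. The groups were far apart, with a 3.71-fold difference (log2 fold change 1.89 ± 0.035, edgeR adjusted p = 8.6e-26). Npc2, which carries cholesterol inside the lysosome, rose by 1.48 ± 0.036. Psap, the precursor of the saposins that present lipids to hydrolases, rose by 1.11 ± 0.033, from a mean of 854 TPM to 1598 TPM.

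All 7 membrane proteins rose. Lamp2, an abundant glycoprotein of the lysosome membrane that also takes part in chaperone-mediated autophagy (chromosome X, 38401357 to 38456454, minus strand), had 83.2, 81.3 and 81.9 TPM in wild type and 249, 251 and 241 TPM in knockout. The knockout libraries were all near 3 times the wild-type level, and the fitted fold was 3.47 (log2 fold change 1.80 ± 0.032, edgeR adjusted p = 3.8e-26). Lamp1, its relative, was the member with the highest level in wild type at 952 TPM and rose by 0.82. Npc1, the partner of Npc2 in cholesterol export, rose by 1.33, Scarb2, the receptor that carries glucocerebrosidase, by 1.23, the calcium channel Mcoln1 by 0.65 and the tetraspanin Cd63 by 0.58.

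Cd68 had the largest change of all members. It encodes a glycoprotein of the LAMP family that is abundant in macrophages and widely used to mark them (chromosome 11, 69664213 to 69666153, minus strand). It had 28.3, 27.4 and 26.9 TPM in wild type and 1377, 1306 and 1386 TPM in knockout. The 3 knockout libraries were within a narrow range, and the difference was 56.9-fold (log2 fold change 5.83 ± 0.054, edgeR adjusted p = 3.51e-32). In wild type it ranked 33 among the tested members with 0.419% of their summed TPM, and in knockout it ranked 3 with 10.5%. Macrophage and leukocyte markers were followed beside it. Of 24 listed markers 9, 8 and 9 had a count among wild-type libraries, against 12, 14 and 20 among knockout libraries. Their summed level was 28.7, 30.5 and 32.5 TPM in wild type and 25.5, 30.3 and 79.8 TPM in knockout, most of it from Cd14 except in knockout replicate 3. The markers did not move together. Of the 24, 3 passed the filter on low counts: 1 was higher, 1 lower and 1 not called. Their median log2 fold change of -0.18 is that of the gene not called, and their median absolute change was 4.085. No wild-type count was seen for 12 of the 24 markers, and no knockout count for 4. Cd14 and Mertk aside, the sums were 1.23, 0.787 and 1.80 TPM in wild type and 7.37, 10.98 and 59.1 TPM in knockout. In all 6 libraries 3 of the markers were at 0, Ly6g and Flt3 among them. Lyz2, a lysozyme of macrophages, had 1, 0 and 0 counts in wild type and 28, 45 and 263 in knockout, so knockout replicate 3 stood apart. Cd68 did not follow that spread: its counts were 7437, 7054 and 7657, which is 266, 157 and 29.1 counts per count of Lyz2. Without knockout replicate 3 the log2 fold change of Cd68 was 5.81.

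**Figure D3:**
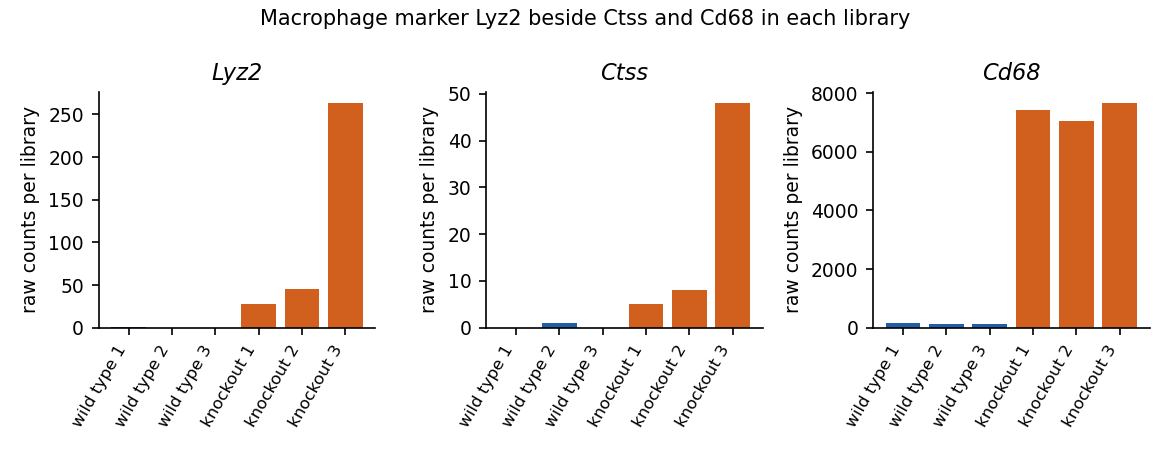
Bars give the raw counts of Lyz2, Ctss and Cd68 in each library, each gene on its own axis. Among the knockout libraries Lyz2 goes from 28 to 263 and Ctss from 5 to 48, both highest in replicate 3, while Cd68 stays between 7054 and 7657.

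Ctsk and Ctsf were close to silent, and Ctss was low except in knockout replicate 3, where it had 8.04 TPM. Ctss, a cathepsin typical of antigen-presenting cells (chromosome 3, 95526786 to 95556403), had 0, 1 and 0 counts in wild type and 5, 8 and 48 in knockout. Most knockout counts came from replicate 3. The ratio of pooled counts was 62.1, with an exact 95% interval of 10.7 to 2490 that covers counting error only. The counts of Ctss per count of Lyz2 were 0.179, 0.178 and 0.183 in the 3 knockout libraries. These ratios to a macrophage gene were close, but those of knockout replicates 1 and 2 rest on 5 and 8 counts of Ctss. Their counting error is therefore wide, and a fixed ratio cannot be read from them. The part of other cells in this was not tested. Ctsk, the cathepsin of osteoclasts, had 0, 1 and 0 counts in wild type and 0, 0 and 3 in knockout. The osteoclast markers Calcr and Ocstamp were at 0 throughout, while Acp5, Mmp9 and Nfatc1 were expressed in both groups, and only Mmp9 of these passed the test (0.69). Ctsf had 1 count in all, in knockout replicate 2. No fold is given for Ctsk and Ctsf, since neither group exceeded 3 counts.

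Summed over all members, the lysosomal genes took 6572, 6539 and 6609 TPM in wild type and 12933, 12725 and 13072 TPM in knockout. The knockout libraries were all well above the wild-type libraries, a ratio of means of 1.96. The sum is 0.657% of all TPM in wild type and 1.29% in knockout. Without Cd68 the ratio was 1.76. By class it was 2.62 for the membrane proteins, 2.32 for the soluble proteins without enzyme activity, 1.76 for the glycosidases, 1.69 for the proteases, 1.25 for the sulfatases, 1.10 for the lipid enzymes and 1.09 for the transcription factors. With 3 libraries against 3 an exact permutation test of a sum cannot go below a two-sided p of 0.10, so no test is given for these sums. How much a member changed had little relation to its level: Spearman's rho of the log2 fold change with the log2 wild-type TPM was 0.111 over 41 members, which share the libraries. The order of the levels was largely kept, with a rho of 0.781 between the groups. Lamp1, Psap and Ctsz led in wild type, and Psap, Lamp1 and Cd68 led in knockout.

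**Figure D4:**
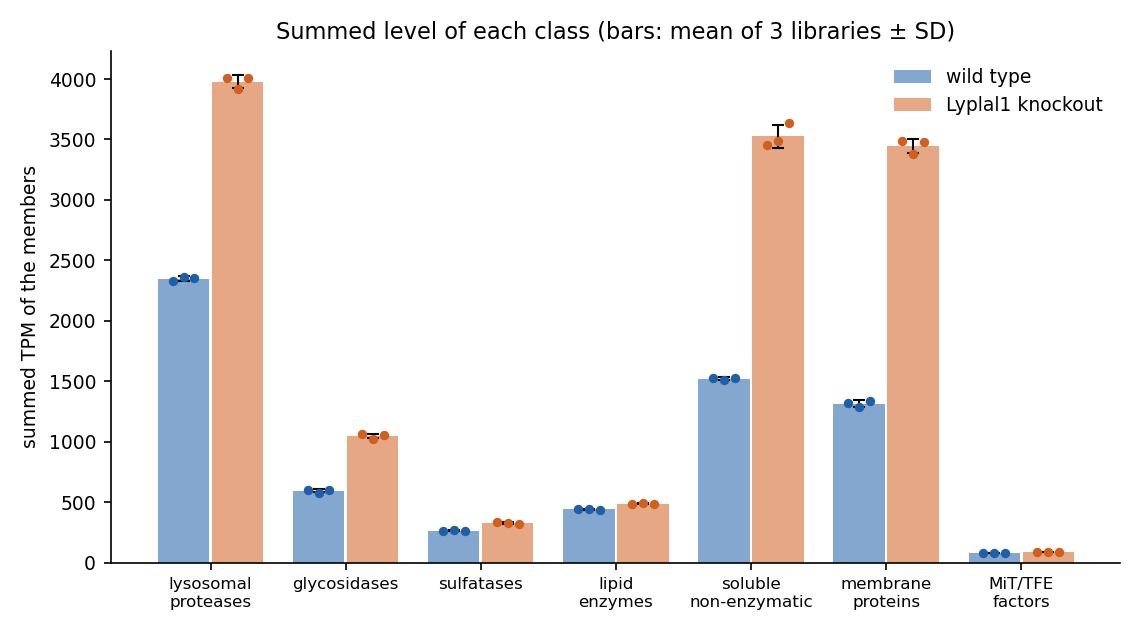
Summed TPM of each class of members (bars: group mean, error bars: SD, n = 3, points: libraries). The membrane proteins go from 1315 to 3447 TPM and the soluble proteins without enzyme activity from 1523 to 3528 TPM, while the lipid enzymes go from 443 to 489 TPM.

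Lysosomal genes outside the members were read from lists chosen by function, with earlier results of these data known. The vacuolar ATPase, the proton pump that acidifies the lysosome, rose throughout: 18 of 18 subunits and accessory proteins were higher, with a median log2 fold change of 1.35. Atp6ap1 and Atp6v1h led with 1.95 and 1.94. The smallest rise, 0.18 for Atp6v0a2, did not pass with upper-quartile factors (0.05, edgeR adjusted p = 0.437) and was -0.03 on log2(TPM + 1). Of 26 other tested hydrolases and cofactors 16 rose and 4 fell, and on log2(TPM + 1) 12 and 7, with a median of 0.07 instead of 0.28. Hexa, the alpha subunit of beta-hexosaminidase, had 0, 0 and 1 counts in wild type and 347, 325 and 376 in knockout. Its RNA was thus near absent from the wild-type libraries, and the ratio of pooled counts was 1070 (exact 95% interval 191 to 42200, counting error only). The exons of Hexa share 12.8% of their length with Tmem202 on the opposite strand. Scpep1, a serine carboxypeptidase, rose by 2.20, and Dnase2a, the acid nuclease, and Hgsnat, which acetylates heparan sulfate, changed by -1.12 and -0.74. Dnase2a shares 30% of its exon length with Mast1.

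Membrane, sorting and control genes moved in both directions, and their splits depended on the scaling. Of 23 other tested membrane proteins 12 rose and 8 fell (12 and 11 on log2(TPM + 1)), with the chloride exchanger Clcn7 at 1.48, Tmem192 at 1.38, the transporter Abcb9 at -0.90 and Gpr155, a cholesterol sensor, at -1.72. Of 22 sorting genes 14 rose and 4 fell, and on log2(TPM + 1) the split was 10 and 8, with a median log2 change of 0.07 instead of 0.28. Gnptg and Nagpa, which make the mannose 6-phosphate tag, rose by 1.66 and 1.42, and 49.5% of the exon length of Gnptg is shared with Unkl. The sorting receptors differed in direction. Igf2r, the large mannose 6-phosphate receptor, had 286, 291 and 287 TPM in wild type and 86.3, 82.8 and 77.9 TPM in knockout. The groups were far apart, a log2 fold change of -1.6 ± 0.034 (edgeR adjusted p = 1.73e-24), and Sort1, another sorting receptor, changed by -1.70. M6pr, the small mannose 6-phosphate receptor, had 68.7, 67.0 and 68.0 TPM in wild type and 100.2, 104 and 105 TPM in knockout. Its knockout libraries were all higher, a rise of 0.81 ± 0.042 (edgeR adjusted p = 9.11e-16), and it is named outside the rule after its values were seen. Of 19 tested genes that control Tfeb at the lysosome 12 rose and 5 fell (12 and 7 on log2(TPM + 1)). Flcn, which promotes the phosphorylation of Tfeb and Tfe3 by mTORC1, rose by 1.64, and Lamtor4 of the Ragulator scaffold by 1.28. Ppp3ca, the catalytic subunit of the phosphatase calcineurin, changed by -0.32 and the mTOR partner Mlst8 by -0.29, the latter not passing without knockout replicate 1 (0.0577) or 2 (0.0515). Rragb and Tfec, the latter a relative of Tfeb, had 0 counts in every library.

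Of 35 autophagy genes 20 rose and 10 fell (19 and 13 on log2(TPM + 1)). Sqstm1, the cargo receptor p62, had 799, 762 and 794 TPM in wild type and 5976, 5940 and 6192 TPM in knockout. The knockout level was far above wild type in every library, an 8.88-fold rise (log2 fold change 3.15 ± 0.036, edgeR adjusted p = 1.83e-30). Atg3, which attaches lipid to LC3, rose by 1.89, while Atg9b and Wipi1 changed by -1.29 and -0.67. Of 14 genes of membrane repair 10 rose and 2 fell (9 and 4 on log2(TPM + 1)), with the galectins Lgals3 and Lgals8, which mark damaged lysosomes, at 2.0 and 1.81 and Trim16 at -1.19. The other fall, Pdcd6ip at -0.08, was lost without wild-type replicate 1, wild-type replicate 2 or knockout replicate 1. Only 3 of 8 inhibitors of lysosomal proteases were tested: the cystatins Cst6 and Cstb rose by 3.01 and 1.49, and Cst3 changed by -0.26. These counts are to be read against the 82.3% of all genes called.

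**Figure D5:**
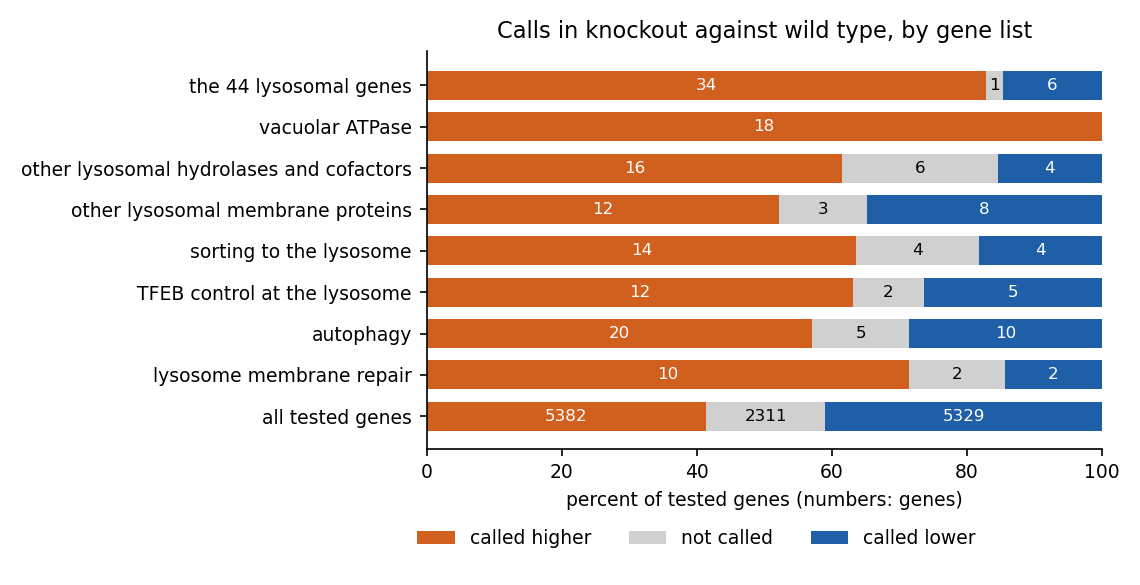
Percent of tested genes called higher, not called and called lower in knockout (edgeR, adjusted p under 0.05, TMM factors) for the members, for 7 lists of other lysosomal genes and for all tested genes, with the number of genes in each bar segment. The vacuolar ATPase holds 18 rises and no falls, and 17 rises with upper-quartile factors, while all tested genes hold 5382 rises and 5329 falls. Among the members, the small rises of Ctsl and Fuca1 turn negative on log2(TPM + 1), where the sorting genes split 10 to 8 and the other hydrolases 12 to 7.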

How the data were processed

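RNA was measured in 6 libraries of untreated 4T-1 cells, 3 wild type and 3 Lyplal1 knockout, grouped by their titles. Trizol extraction and DNBseq library preparation are given per the labels' protocols. STAR 2.7.8a, featureCounts 2.0.1 and GRCm38 are named, without roles, per the submitters' processing notes. Not given in the sources used here are the strand setting, the annotation release and the rule for multiply mapping reads. The files the authors deposited hold, for each of 55487 genes, a whole-number count and a TPM value. Single-library files repeated the values of the series-wide tables, which were used. Symbols and positions come from GENCODE M21, which named 55141 identifiers.

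From the counts, 13022 genes passed filterByExpr and were compared with the quasi-likelihood F test of edgeR 4.0.16 (two-sided, robust, TMM factors), adjusted by Benjamini-Hochberg over all of them, with a threshold of 0.05. CPM were computed from counts and TMM-adjusted library sizes. Ratios of pooled counts with exact intervals are given for genes with 1 to 3 counts in a group. The test was checked on simulated counts in which only a small share of genes changed, in random directions. In these data 82.3% of tested genes were called, so that check does not cover the scaling or the calls here. Members written out in full are the 5 largest rises and 5 largest falls among called members with at least 5 CPM in the higher group, the 3 transcription factors, the 3 smallest changes and every member that failed the filter. Of each list of other genes, the 2 largest rises and 2 largest falls that were called are named. Other members are given by their change. Ctsb, M6pr, Krt5, Krt6a and the markers beside Cd68 and Ctss were chosen for fuller values after these had been seen. The members and all lists were chosen with earlier results of these data known.

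Alternatives were RLE and upper-quartile factors, library size alone, DESeq2 1.42.0, limma-voom (limma 3.58.1), no filter, a filter at 1 CPM in 3 libraries, a threshold of 0.01, testing against a change of 1.2-fold, and a replicate block. TPM were tested with limma-trend after log2 with a pseudocount of 1 or 0.1. Each library was also left out in turn. R 4.3.3, Python 3.11.15, pandas 2.3.3 and matplotlib 3.10.9 were used.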

Additional observations from a re-analysis of the deposited data

How the results depend on the processing

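The 34 rises among the members ranged from 30 to 35 over all alternatives and from 33 to 35 when 1 library was left out. The 6 falls ranged from 4 to 6 when 1 library was left out and were 3 in the test against a 1.2-fold change. All genes called numbered 10711, and 10504 to 10776 with 1 library left out. Ctsl reversed with upper-quartile factors (-0.0181), library size alone (-0.0211), log2(TPM + 1) (-0.0923) and log2(TPM + 0.1) (-0.0924). On these TPM scales Fuca1 was -0.0664 and -0.0677, and Mitf -0.0531 and -0.0592. On both there were 31 rises and 7 falls. DESeq2 called 33 rises and 4 falls, losing Manba, Fuca1 and Sgsh. The cause of these changes was not tested. The replicate block gave 34 rises, 6 falls and 10798 genes called, and changed no member's call. The deviations of same-numbered libraries from their group means correlated at 0.0169, 0.17 and 0.156 over 9364 genes. Wild-type replicate 3 with knockout replicate 2 gave -0.15, and wild-type replicate 2 with knockout replicate 3 gave -0.162. Knockout replicate 1 correlated about equally with wild-type replicates 1 and 2 (0.0196 for the latter). These values do not decide whether the replicate numbers pair the libraries. With 3 libraries a group, changes under about 1.2-fold rest on a narrow margin, and genes with few counts such as Ctss could not be tested.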
